A study of Mus musculus with 14 samples.

Results

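The genes described here are the enzymes and regulators that carry glucose carbon through glycolysis, pass pyruvate into the mitochondrion and burn it in the citrate cycle. The list holds 39 genes, chosen by symbol, of 16593 genes that had a probe on the Illumina mouse BeadChips used, with the brightest probe standing for its gene. A probe carried the symbol of 34 of the 39 in the platform annotation used, and Gpi1, Eno1, Ldhb, Mpc1 and Mpc2 were not analysed here. RNA came from mouse oocytes held at the germinal vesicle stage, before the first meiotic division resumes. The oocytes carried a human AGO2 with myc and GFP tags at Rosa26, silent behind a lox-stop-lox cassette until Cre removes the stop, and Cre was driven by the oocyte promoter Zp3. Cre-negative and Cre-positive oocytes were profiled in a set with no miRNA (4 arrays of each) and in a set injected with 2 µM miR-15a mimic (3 arrays of each). All mice received 5 units of the gonadotropin PMSG 48 h before injection, and all oocytes were kept overnight in 2 µM milrinone, which holds meiotic arrest. No group carried Cre without the transgene, so an effect of Cre and an effect of AGO2 cannot be told apart. The labels do not say whether the arrays of a group came from separate animals or pools, so p-values measure only the spread between these samples, which may be technical.

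A growing mouse oocyte is known for using pyruvate rather than glucose. Its cumulus cells take up glucose, run glycolysis and hand pyruvate over, and the oocyte oxidises it: the pyruvate dehydrogenase complex turns it into acetyl-CoA, which citrate synthase feeds into the citrate cycle. Several steps exist as isozymes from separate genes, so a pathway can be complete on 1 member of each family. Pyruvate dehydrogenase is switched off by its kinases (Pdk genes) and back on by its phosphatases (Pdp genes).

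The mean raw intensity per array was 118 to 151 without mimic and 339 to 380 with mimic, and 11652 to 13715 of 25697 probes were detected at a detection p under 0.05. Cre-positive array 1 without mimic was the dimmest, at 118 with 11652 probes detected. The other 7 arrays of that set read 137 to 151 with 13294 to 13619 detected. Its lowest detected log2 signal was 4.53, where theirs was 4.35 to 4.37. The mouse Ago2 probe, which checks the Cre label, read 4.63 to 5.06 on the log2 scale in Cre-negative and 6.76 to 6.98 in Cre-positive arrays without mimic. With mimic it read 5.91 to 6.24 and 8.33 to 8.53, so no array went against its label. The transgene is human AGO2, and whether this probe read its transcript or that of the mouse gene was not tested. Of 15 oocyte markers with a probe, 15 were detected on every array in each set. Of 22 granulosa and cumulus markers with a probe, 2 were detected on every array and 6 on none without mimic, and 4 and 11 with mimic. Inha, Fst, Ptx3, Star and Tnfaip6 were among those detected on no array in either set. Nr5a2 was detected on all 14 arrays, Gja1 on 8 of 8 without and 5 of 6 with mimic, and Kitl, Inhba and Has2 on 7, 3 and 1 of 8 without and 6 of 6 with mimic. Fshr was detected on 7 of 8 arrays without and 5 of 6 with mimic. Of the theca, blood and immune markers, Acta2, Laptm5 and Pecam1 were detected on 8 of 8 and 6 of 6 arrays. Cyp17a1, Col1a1, Hba-a1 and Lyz2 were detected on none, Dcn on 1 of 8 and 1 of 6, and Ptprc on 0 of 8 and 1 of 6. Cre-positive array 4 of the set without mimic stood apart, with a first principal component of 24.1 against −6.75 to 2.68 for the other 7 arrays. That array held the highest or lowest of the 8 values for 16 of 27 members tested (59.3%), beside 44.4% of all features.

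The sequences that follow show the injected miRNA and a pair of isozyme promoters whose genes differed in detection. The miR-15a-5p sequence lies at chr14:61632075-61632096 on the minus strand (RefSeq, GRCm38.p6), in RNA letters, and its capitals mark the seed, bases 2 to 8, through which a miRNA finds its targets. The labels name only miR-15a, and the mimic's own sequence was not used here. The promoters run from 250 bases before to 50 bases after a listed start of Hk2 (detected on every array) and of Hk1 (detected on none), and capitals mark CpG dinucleotides. All 3 windows lie on the minus strand of GRCm38.p6, Hk2 at chr6:82774405-82774704. The Hk1 windows lie at chr10:62340372-62340671 (start 1) and chr10:62379859-62380158 (start 2), numbered from most to fewest CpG.
mmu-miR-15a-5p: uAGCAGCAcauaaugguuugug
Hk2 promoter: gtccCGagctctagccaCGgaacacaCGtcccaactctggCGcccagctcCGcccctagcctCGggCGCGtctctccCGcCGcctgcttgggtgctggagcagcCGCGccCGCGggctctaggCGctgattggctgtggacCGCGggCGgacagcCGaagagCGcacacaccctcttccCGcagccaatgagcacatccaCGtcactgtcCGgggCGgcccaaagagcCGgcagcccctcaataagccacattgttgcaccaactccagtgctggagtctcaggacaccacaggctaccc
Hk1 promoter, start 1: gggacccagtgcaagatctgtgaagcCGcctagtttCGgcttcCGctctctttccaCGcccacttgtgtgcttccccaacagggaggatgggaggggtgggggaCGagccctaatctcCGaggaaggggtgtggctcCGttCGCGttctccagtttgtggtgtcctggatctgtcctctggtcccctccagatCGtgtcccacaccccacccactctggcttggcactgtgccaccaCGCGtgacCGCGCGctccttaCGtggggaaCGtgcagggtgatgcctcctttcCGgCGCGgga
Hk1 promoter, start 2: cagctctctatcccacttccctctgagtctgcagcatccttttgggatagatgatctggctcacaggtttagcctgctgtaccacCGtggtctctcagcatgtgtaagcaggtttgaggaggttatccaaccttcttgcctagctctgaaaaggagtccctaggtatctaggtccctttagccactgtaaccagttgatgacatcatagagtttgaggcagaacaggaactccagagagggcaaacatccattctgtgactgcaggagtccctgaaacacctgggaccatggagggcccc

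The Hk2 window held 25 CpG and the Hk1 windows 20 and 1, so the undetected gene has a CpG-rich listed start as well as a CpG-poor one. RefSeq windows were found for 37 of the 39 members, and for each the listed start with most CpG was counted. The median was 21 CpG (range 12 to 37) in 25 detected members and 17.5 (range 8 to 25) in the 6 detected on no array, beside 8 over 27025 promoters. ACGTG, the core to which hypoxia-inducible factors bind, was searched on both strands and lies within the E-box CACGTG. It was found in 10 of the 25 (40%), in 4 of the 6 (66.7%) and in 19.9% of all promoters. TATAAA was found in 0 of the 25, in 1 of the 6 and in 13.7% of all promoters. ACGTG itself holds a CpG, while TATAAA holds neither C nor G. The set of all promoters was not matched to the members for CpG count, so the shares do not measure enrichment. These matches describe letters in a window and do not say that a factor binds.

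Without mimic 25 of the 34 members with a probe (73.5%) were detected on every array, beside 43.7% of all genes, and with mimic 27 of 34 (79.4%), beside 48%. The same 6 genes, Hk1, Aldoc, Pgk1, Eno2, Pdk2 and Pdk4, were detected on 0 of 8 and 0 of 6 arrays, beside 31.1% and 37.7% of all genes detected on none. The remaining gene outside the tests, Pcx (pyruvate carboxylase, which makes oxaloacetate from pyruvate), was detected on 3 of 8 arrays without mimic and on 1 of 6 with mimic. In the citrate cycle 10 of 10 measured members were detected on every array of each set, and in the pyruvate dehydrogenase complex 4 of 4. Upper glycolysis, from hexokinase to triose phosphate isomerase, had 5 of 8 members on every array without mimic and 6 of 8 with mimic, and lower glycolysis 2 of 5 and 3 of 5. These shares depend on which genes are listed: Eno1 had no probe with its symbol, and Pkm, pyruvate kinase, is no member. They do not rank the steps by transcript level. At a detection p under 0.01 the counts over all members were 25 on every array and 6 on none without mimic, and 24 and 7 with mimic.

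**Figure D1:**
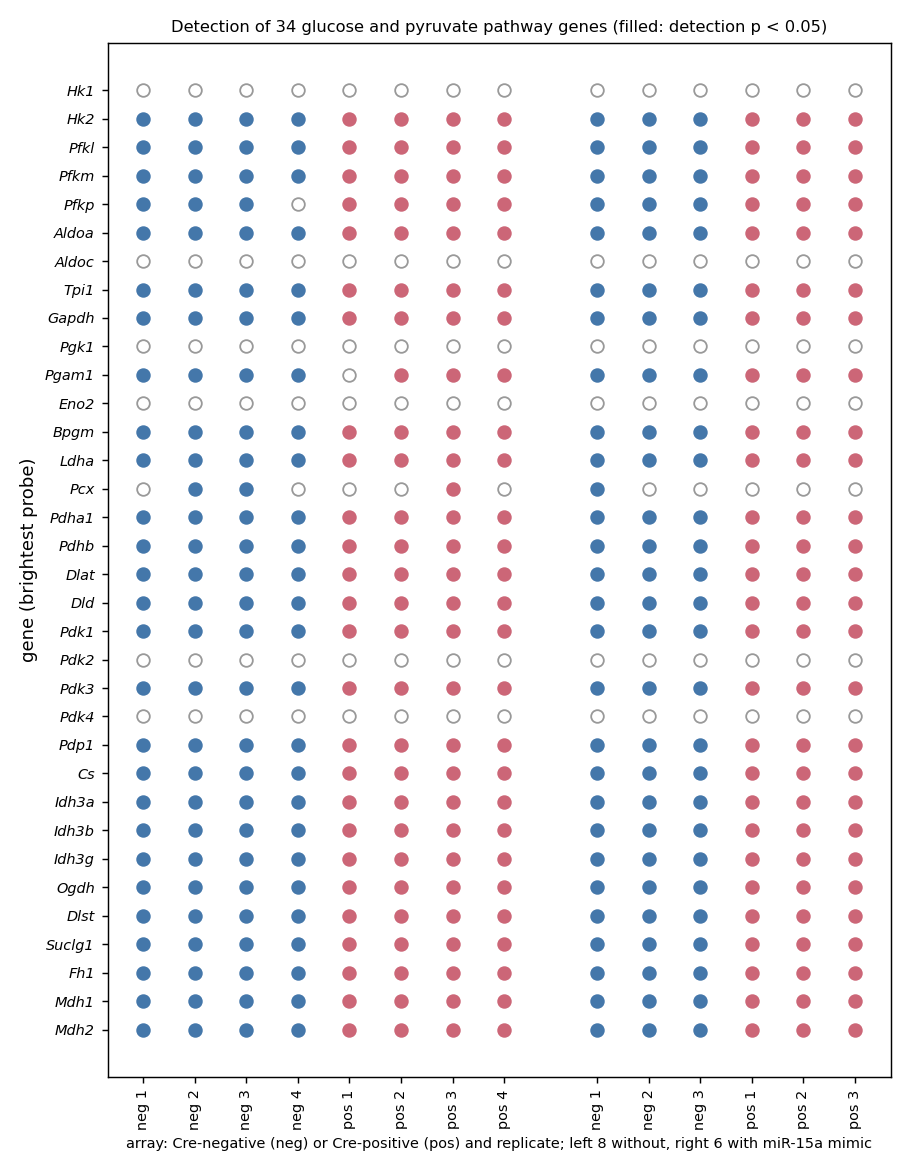
Each row is 1 of the 34 members with a probe and each column 1 of the 14 arrays, the 8 without mimic on the left and the 6 with mimic on the right (blue Cre-negative, red Cre-positive). Filled circles mark a detection p under 0.05. The 6 rows of open circles are Hk1, Aldoc, Pgk1, Eno2, Pdk2 and Pdk4, and Pcx is mixed.

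A probe that was not detected gives only an upper bound on its gene, and a weak probe can miss a transcript that is present. The 6 undetected members read 4.09 to 4.35 on the log2 scale without mimic, where the lowest detected signal of an array was 4.35 to 4.53. With mimic they read 4.35 to 4.73, against a lowest detected signal of 4.97 to 5.07. Mean log2 signals of the 27 tested members ranged from 4.52 to 8.64 without mimic and from 5.49 to 10.5 with mimic. The sets were normalized separately, so the higher log2 signals with mimic are not a comparison of the sets, and signals of different probes are not ranked.

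Hexokinases trap glucose in the cell as glucose 6-phosphate, and Hk2 was the detected isozyme. Hk2 log2 signal was 6.72, 6.69, 6.70 and 6.78 in the Cre-negative and 6.41, 6.49, 6.37 and 6.96 in the Cre-positive arrays without mimic. In 3 of 4 Cre-positive arrays it lay below every Cre-negative array, and array 4, the one that stood apart, was the highest of all 8. The group means were 6.72 ± 0.0390 and 6.56 ± 0.274 (SD, n = 4), a difference of −0.17 ± 0.125 (SE) with a limma adjusted p of 0.948. With mimic Hk2 read 8.67, 8.88 and 8.78 in Cre-negative and 8.86, 8.82 and 8.79 in Cre-positive arrays. These ranges overlapped, and the difference was 0.04. Hk1, whose product sits on the outer mitochondrial membrane in most tissues, stayed between 4.12 and 4.35 without mimic and between 4.45 and 4.73 with mimic, with no array detected in any of the 4 groups. Of the other hexokinases listed, Hk3 and Hkdc1 were detected on no array.

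Phosphofructokinase commits sugar phosphate to glycolysis, and its liver (Pfkl), muscle (Pfkm) and platelet (Pfkp) subunits were all detected. Pfkp was detected on 3 of 4 Cre-negative and 4 of 4 Cre-positive arrays without mimic. Its log2 signal there was 4.65, 4.89, 4.77 and 4.31 in Cre-negative and 4.68, 4.80, 4.64 and 5.25 in Cre-positive arrays. With the mimic the values were 7.16, 6.82 and 7.18 in Cre-negative and 6.84, 7.09 and 6.78 in Cre-positive arrays. The groups overlapped in each set, and the differences were 0.19 (limma adjusted p = 0.948) and −0.15 (adjusted p = 0.852). A second Pfkp probe gave 0.12 and 0.17, so the direction with mimic depends on the probe. Pfkl log2 signal ranged from 5.28 to 5.92 without mimic and from 6.88 to 7.26 with mimic, and its differences were −0.11 and −0.01. Pfkm differed by 0.05 and 0.02 on its brightest probe, while its other 2 probes gave 0.18 and −0.19 without mimic. Of 9 members with more than 1 tested probe, the probes differed in the sign of the Cre difference for 4 without mimic (Mdh1, Pfkl, Pfkm and Suclg1) and for 5 with mimic (Idh3g, Pfkl, Pfkm, Pfkp and Tpi1).

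Aldolase splits fructose bisphosphate, and Aldoa was the detected member of the family. Aldoa ranged from 6.97 to 7.63 without mimic, its lowest value again on Cre-positive array 4, and from 9.53 to 9.66 with mimic. Its Cre differences were −0.03 and −0.00. Aldoc, the brain aldolase, stayed between 4.09 and 4.23 without mimic and between 4.38 and 4.48 with mimic. Triose phosphate isomerase, encoded by Tpi1, interconverts the products of aldolase. Tpi1 read 7.74, 7.69, 7.75 and 7.88 in Cre-negative and 7.72, 7.93, 7.77 and 7.98 in Cre-positive arrays without mimic. The groups overlapped, with a difference of 0.09. With mimic the Cre-negative arrays read 9.98, 10.08 and 9.99 and the Cre-positive arrays 9.90, 9.95 and 9.91. The groups did not overlap there, but the difference was −0.10 ± 0.0829 (SE), with adjusted p = 0.847. A second Tpi1 probe gave 0.14 with mimic, in the opposite direction.

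Gapdh, which oxidises glyceraldehyde 3-phosphate in the first energy-yielding step of glycolysis, had the largest Cre difference of the 27 members with mimic. Its log2 signal without mimic was 5.70, 5.55, 5.64 and 5.86 in Cre-negative and 5.92, 5.91, 6.09 and 5.75 in Cre-positive arrays. Cre-positive arrays 1, 2 and 3 lay above all Cre-negative arrays and array 4 lay among them. The difference was 0.23 ± 0.109 (SE), a 1.17-fold higher signal, with adjusted p = 0.948. With mimic Gapdh read 6.63, 6.89 and 6.93 in Cre-negative and 7.15, 7.11 and 7.16 in Cre-positive arrays. Every Cre-positive array lay above every Cre-negative array, which themselves spread by more than the gap between the groups. That difference was 0.33 ± 0.105 (SE), or 1.25-fold, with a 95% interval of 0.08 to 0.57 and adjusted p = 0.520 over all features. The second Gapdh probe gave 0.23 and 0.29, close to the first in each set. Gapdh is a common loading reference, and its difference did not pass the test in either set. With mimic the summed linear signal of the 22 granulosa and cumulus markers was 644 to 655 in Cre-negative and 662 to 746 in Cre-positive arrays, without overlap, and its part in the Gapdh difference and the other differences with mimic was not tested. With mimic the brightest of these markers was Nr5a2, with group means of 8.26 (Cre-negative) and 8.40 (Cre-positive) on the log2 scale. Kitl came next with 6.75 and 6.95. The other markers of this list that passed the detection filter with mimic went either way. Has2 (0.11) and Gja1 (0.06) were higher in Cre-positive arrays, and Inhba (−0.09), Nr5a1 (−0.07) and Fshr (−0.005) were lower. The summed signal of the theca, blood and immune markers with mimic was 671 to 823 and 660 to 797, and the groups overlapped. That of the oocyte markers with mimic was 34645 to 37210 and 36567 to 40694, also overlapping. Of the oocyte markers, Zp2, Gdf9, Oosp1, Padi6, Nobox and Npm2 did not overlap upward with mimic, beside 6.36% of features, and none did downward. The part of the oocyte markers in these differences was not tested either. Without mimic the granulosa and cumulus sum was 199 to 254 and 202 to 270. In bulk RNA, fewer cells of a type and less RNA per cell cannot be told apart.

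Detection varied among the genes of the next steps of lower glycolysis. Phosphoglycerate kinase makes the first ATP of the pathway, and Pgk1 stayed between 4.15 and 4.28 without mimic and between 4.35 and 4.44 with mimic, as undetected as its testis relative Pgk2. Phosphoglycerate mutase is encoded by Pgam1, which read 4.70, 4.53, 4.56 and 4.57 in Cre-negative and 4.41, 4.45, 4.44 and 4.47 in Cre-positive arrays without mimic. The groups did not overlap, yet all 8 values lay close to the detection limit, and Cre-positive array 1 was not detected. The difference was −0.15 ± 0.0951 (SE) with adjusted p = 0.948. With mimic Pgam1 read 5.07, 5.67 and 5.60 in Cre-negative and 5.69, 5.20 and 5.72 in Cre-positive arrays, overlapping, with a difference of 0.09. Bpgm, which makes 2,3-bisphosphoglycerate and also has mutase activity, was detected on every array, with differences of −0.06 and −0.02. Eno2, the neuronal enolase, stayed between 4.14 and 4.26 without mimic and between 4.45 and 4.67 with mimic. Eno1b, an enolase gene closely related to Eno1, was detected on 8 of 8 and 6 of 6 arrays and differed by 0.14 (adjusted p = 0.952) and −0.10 (adjusted p = 0.850). Whether its probe also reads the Eno1 transcript was not tested. Eno1b is no member and was picked after its values were seen. So was Pkm, pyruvate kinase, the enzyme that ends glycolysis: it was detected on every array, and on Cre-positive array 4 without mimic it read 7.17, where the other 7 arrays read 8.34 to 8.80.

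Lactate dehydrogenase interconverts pyruvate and lactate. Ldha, the muscle-type subunit, was detected on every array and read 5.15, 5.25, 5.39 and 5.68 in Cre-negative and 5.32, 5.28, 5.40 and 5.07 in Cre-positive arrays without mimic. With mimic it read 6.33, 5.57 and 5.65 in Cre-negative and 5.94, 5.79 and 5.33 in Cre-positive arrays. The groups overlapped in each set, and with mimic 1 Cre-negative array stood well above the rest. The differences were −0.10 ± 0.123 and −0.16 ± 0.234 (SE), the second with the widest interval of any member, −0.71 to 0.38. Ldhc, the testis lactate dehydrogenase subunit, was detected on every array as well.

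The pyruvate dehydrogenase complex, which makes acetyl-CoA from pyruvate, was measured through all 4 listed subunits. Pdha1, its catalytic alpha subunit, read 6.68, 6.73, 6.84 and 6.72 in Cre-negative and 6.87, 6.85, 6.76 and 6.50 in Cre-positive arrays without mimic. In mimic-injected oocytes it read 9.45, 9.19 and 9.21, and 9.18, 9.21 and 9.47. The groups overlapped in each set, and both differences were 0.00, with 95% intervals of −0.23 to 0.23 and −0.28 to 0.28. Pdhb, the beta subunit, differed by −0.03 in each set. Dld, the dehydrogenase subunit shared with the 2-oxoglutarate complex, differed by 0.14 and 0.03.

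Dlat, the acetyltransferase core of the same complex, was the only member whose Cre difference differed between the sets at an unadjusted p under 0.05. Without mimic it read 6.19, 6.07, 6.04 and 5.99 in Cre-negative and 5.80, 6.08, 5.91 and 5.26 in Cre-positive arrays. With mimic it read 7.96, 7.76 and 8.04 in Cre-negative and 8.24, 7.95 and 8.01 in Cre-positive arrays. The groups overlapped in each set, and the lowest value without mimic was on the Cre-positive array that stood apart. The differences were −0.31 ± 0.143 (SE, adjusted p = 0.948) and 0.15 ± 0.118 (SE, adjusted p = 0.832). The difference between them was 0.46 ± 0.213 (SE), with a 95% interval of 0.01 to 0.91 and adjusted p = 0.9999. Without Cre-positive array 4 the Cre difference was −0.14 and the difference between the sets 0.29.

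Among the kinases that inhibit pyruvate dehydrogenase, Pdk1 and Pdk3 were detected on every array, while Pdk2 and Pdk4, which are abundant in liver, heart and muscle, were detected on none. Pdk1 read 5.31, 5.06, 5.32 and 5.22 in Cre-negative and 5.49, 5.26, 5.35 and 5.31 in Cre-positive arrays without mimic, and the groups overlapped. Its values with mimic were 6.65, 6.97 and 6.78, and 6.76, 6.86 and 6.22, with 1 low Cre-positive array. Its differences were 0.12 and −0.19, and those of Pdk3 0.03 and −0.02. Pdk2 stayed between 4.14 and 4.30 without mimic and between 4.45 and 4.65 with mimic, and Pdk4 between 4.15 and 4.33 and between 4.43 and 4.66. Pdp1, the phosphatase that reverses their action, differed by 0.10 and −0.01.

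The citrate cycle oxidises acetyl-CoA and was detected throughout. Cs, citrate synthase, read 7.50, 7.74, 7.75 and 7.61 in Cre-negative and 7.48, 7.46, 7.79 and 7.42 in Cre-positive arrays without mimic. With mimic it read 9.83, 9.80 and 9.75, and 9.84, 9.73 and 9.73. The groups overlapped in each set, with differences of −0.11 and −0.03. Ogdh, the first subunit of the 2-oxoglutarate dehydrogenase complex, was the other cycle member below 0 in each set. It read 7.80, 7.47, 7.69 and 7.79 in Cre-negative and 7.67, 7.95, 7.60 and 7.24 in Cre-positive arrays without mimic, and 9.45, 9.18 and 9.50 against 9.13, 9.17 and 9.24 with mimic. Its groups overlapped too, and the differences were −0.07 and −0.20 (adjusted p = 0.756 with mimic).

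Idh3b, a regulatory subunit of the NAD-dependent isocitrate dehydrogenase, had the highest Cre difference of the 27 members without mimic. It read 5.59, 5.68, 5.71 and 6.15 in Cre-negative and 6.14, 5.94, 6.02 and 6.21 in Cre-positive arrays. Apart from 1 high Cre-negative array, the Cre-negative values lay below all Cre-positive ones. The difference was 0.30 ± 0.125 (SE), 1.23-fold, with a 95% interval of 0.03 to 0.56 and adjusted p = 0.948. With mimic Idh3b read 6.81, 6.87 and 6.89 in Cre-negative and 7.24, 7.18 and 6.86 in Cre-positive arrays, so 2 Cre-positive arrays lay above the Cre-negative ones and 1 lay among them. That difference was 0.24 ± 0.119 (SE), with adjusted p = 0.732. The catalytic subunit Idh3a differed by 0.06 in each set and the other regulatory subunit, Idh3g, by 0.12 and 0.07.

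Fh1, fumarase, was the 1 member whose Cre-positive arrays all lay above its Cre-negative arrays without mimic. It read 6.87, 7.02, 7.10 and 7.04 in Cre-negative and 7.27, 7.29, 7.24 and 7.13 in Cre-positive arrays. The difference was 0.22 ± 0.0989 (SE), 1.17-fold, with adjusted p = 0.948. In the arrays with mimic it read 8.80, 8.76 and 8.66, and 9.02, 8.86 and 8.76, overlapping at 1 value, with a difference of 0.14 (adjusted p = 0.804). Mdh2, the mitochondrial malate dehydrogenase, read 7.24, 7.24, 7.26 and 7.47 in Cre-negative and 7.58, 7.40, 7.32 and 7.54 in Cre-positive arrays without mimic. With mimic it read 9.16, 9.05 and 8.96, and 9.10, 9.25 and 9.41. Its groups overlapped in each set, with differences of 0.16 (adjusted p = 0.948) and 0.19 (adjusted p = 0.761). Mdh1, the cytosolic malate dehydrogenase of the malate-aspartate shuttle, differed by 0.09 and 0.15, Suclg1 (a succinate-CoA ligase subunit) by 0.10 and 0.13, and Dlst (the succinyltransferase core of the 2-oxoglutarate complex) by 0.03 and 0.08.

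**Figure D2:**
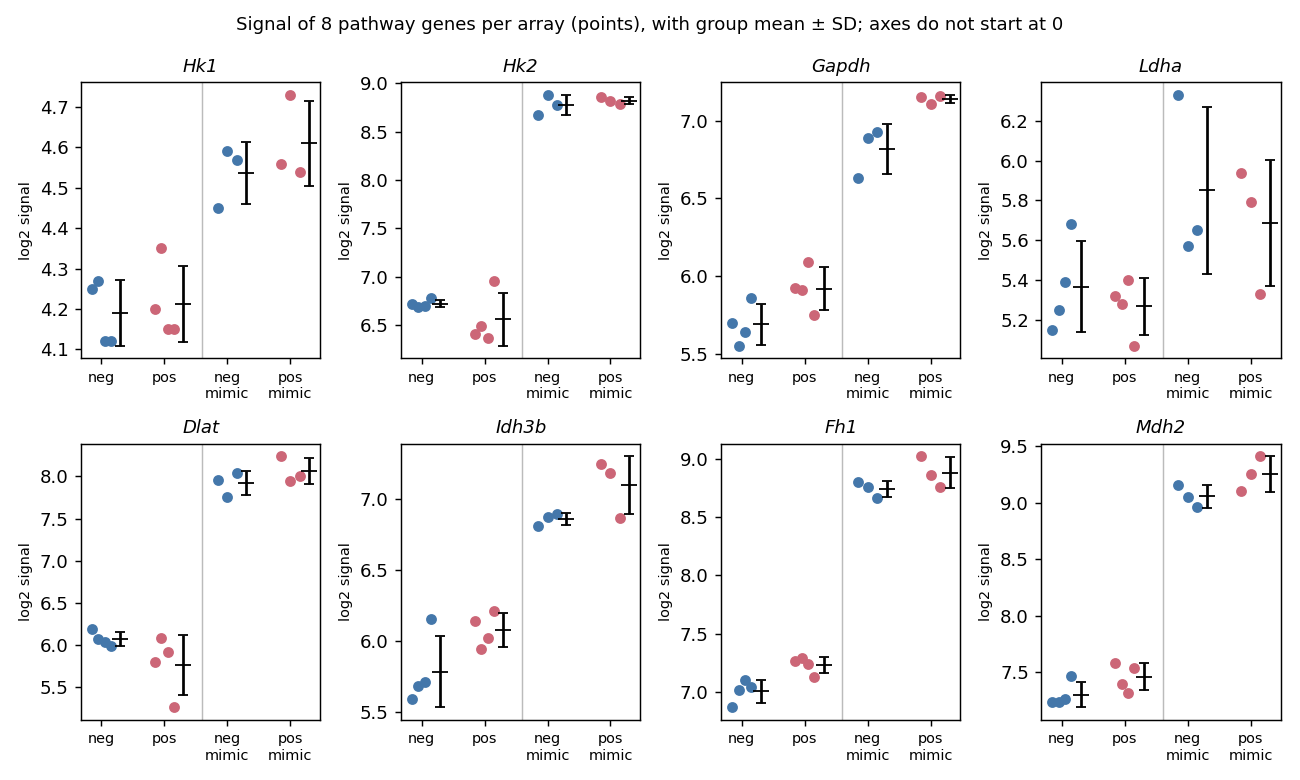
Points are the log2 signals of 8 members on each array, in 4 groups (neg and pos, Cre-negative and Cre-positive, without and with mimic), with group mean ± SD beside them, and the grey line parts the separately normalized sets. The Gapdh groups with mimic and the Fh1 groups without mimic do not overlap, and 1 Cre-positive Dlat value, 5.26, lies below the other 7 without mimic.

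Taking the list as a whole, the question was whether transcripts of the pathway differ once Cre has released the tagged AGO2. Groups were compared with limma's moderated test, two-sided, with Benjamini-Hochberg adjustment over all features. None of the 27 tested members passed an adjusted p under 0.05 without mimic, with mimic or in the difference between the sets, where 0.0419%, 0.132% and 0% of all features passed. At an unadjusted p under 0.05 there were 3 members without mimic (Idh3b and Fh1 higher, Dlat lower in Cre-positive arrays), 1 with mimic (Gapdh, higher) and 1 in the difference (Dlat). That is 3 of 27 beside 4.67% of all features, 1 of 27 beside 7.5% and 1 of 27 beside 4.54%. The count without mimic dropped to 0 when Cre-negative array 1, Cre-negative array 2 or Cre-positive array 1 was left out, and to 1 without Cre-negative array 3.

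The log2 differences ranged from −0.31 to 0.30 without mimic and from −0.20 to 0.33 with mimic, with a median SE of 0.112 and 0.108. The 95% intervals of all 27 members lay within 1 log2 unit of 0 in each set, and those of 24 and 22 lay within 0.5. Without mimic 1 member did not overlap upward (Fh1, beside 1.08% of features) and 1 downward (Pgam1, beside 1.83%). With mimic it was Gapdh upward (beside 6.36%) and Tpi1 downward (beside 6.25%). The median log2 difference was 0.05 without mimic, where that of all features was −0.01, and 0.02 with mimic, where it was 0.00.

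**Figure D3:**
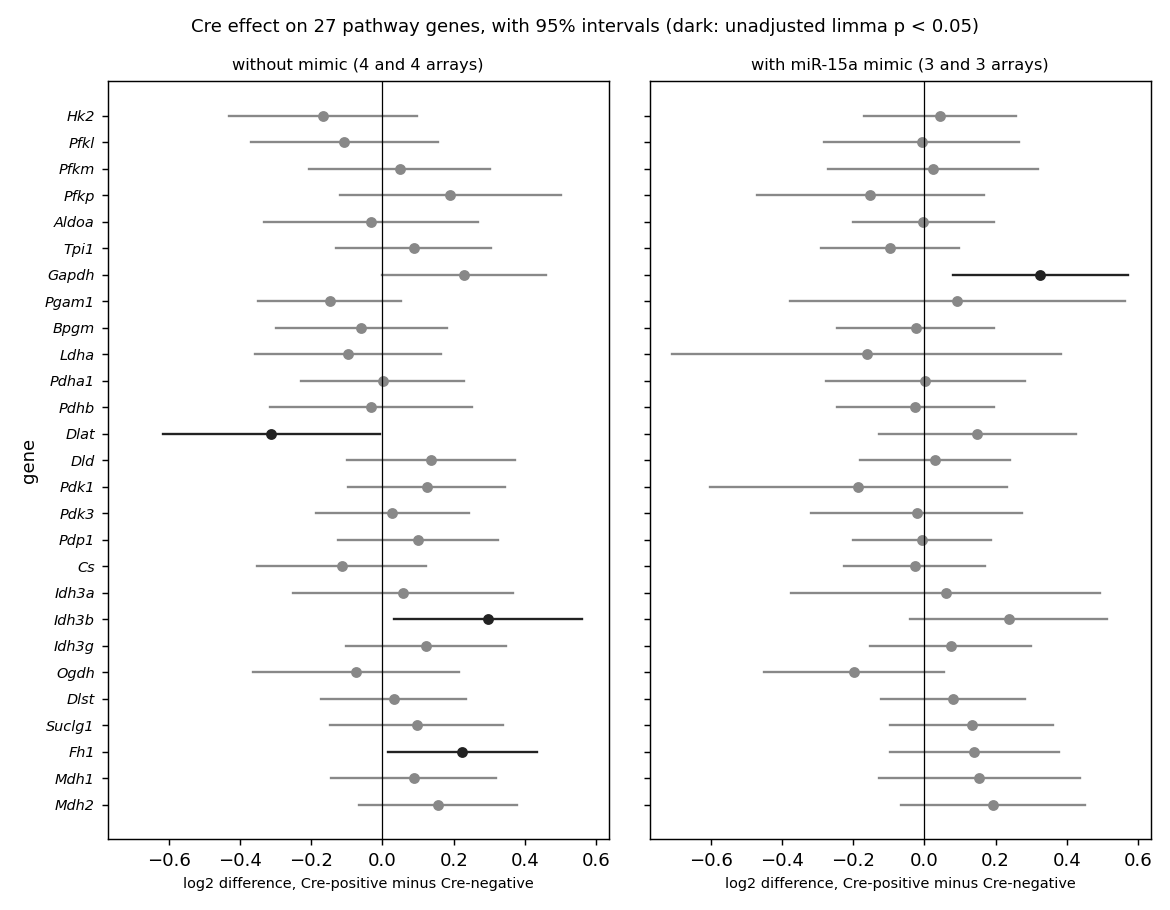
Points are log2 differences, Cre-positive minus Cre-negative, of the 27 tested members without mimic (left, 4 and 4 arrays) and with mimic (right, 3 and 3 arrays), and lines are 95% intervals. Dark points had an unadjusted limma p under 0.05: Dlat, Idh3b and Fh1 on the left and Gapdh on the right, none past the adjusted threshold.

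In each set 8 of the 10 citrate cycle members were above 0 on their brightest probe (beside 47.8% and 50.5% of all features). They were the same 8: Idh3a, Idh3b, Idh3g, Dlst, Suclg1, Fh1, Mdh1 and Mdh2. A second tested probe went the other way for Mdh1 (−0.05) and Suclg1 (−0.001) without mimic and for Idh3g (−0.09) with mimic. Over all 9132 features compared in both sets, 27.3% were above 0 in both. The median difference of the 10 was 0.09 without mimic and 0.11 with mimic, and none of the 10 passed the adjusted test. Under median scaling instead of quantile normalization, 5 of 10 were above 0 without mimic, where the median of all features moved from −0.01 to −0.07, and 8 of 10 stayed above that median. With mimic 8 of 10 were above 0 under either scaling. Upper glycolysis had 3 of 6 members above 0 without mimic and 2 of 6 with mimic, of which 1 (Pfkm) was above 0 in both. The 3 regulators Pdk1, Pdk3 and Pdp1 were all above 0 without mimic and all below 0 with mimic, with differences between −0.19 and 0.12. Over the whole list 19 of 27 members (70.4%) had the same sign in both sets, beside 56.3% of features. Above 0 were 17 of 27 members (63%) without mimic and 15 of 27 (55.6%) with mimic, beside 47.8% and 50.5% of features. Under median scaling 10 (37%) and 13 (48.1%) were above 0, beside 28.8% and 46.5% of features, and 16 and 14 of the 27 lay above the median of all features.

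**Figure D4:**
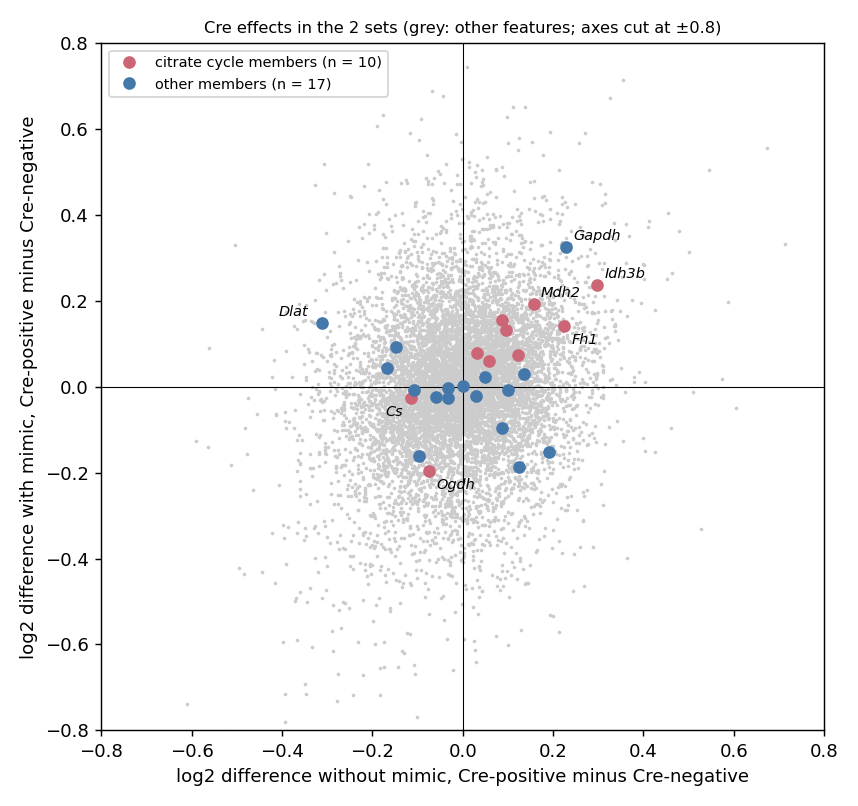
Each point is a feature's log2 Cre difference without mimic (x) and with mimic (y), grey for 9132 features (21 lie outside the axes), red for the 10 citrate cycle members and blue for the other 17 members. Of the red points, 8 lie above 0 on each axis and 2, Cs and Ogdh, below 0 on each, all within 0.30 of 0.

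The other genes of these pathways were taken from a list of 78, of which 68 had a probe. Detected on every array were 38 (55.9%) without mimic and 39 (57.4%) with mimic. The 5 pentose phosphate genes with a probe were among them in each set, as were Idh1 and Sucla2. Idh2, the mitochondrial NADP-dependent isocitrate dehydrogenase, was detected on no array, as were the isozymes Gapdhs, Pgam2, Eno3 and Pklr. Slc2a1, a glucose transporter, was detected on every array and Slc16a1, a lactate and pyruvate transporter, on none, both picked after their values were seen. None of the 43 tested without mimic or the 46 tested with mimic passed an adjusted p under 0.05, the smallest being 0.791 and 0.604.

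At an unadjusted p under 0.05 there were 3 of 43 of these genes without mimic, beside 4.67% of all features, and 2 of 46 with mimic, beside 7.5%. Gpd2, the mitochondrial glycerol 3-phosphate dehydrogenase that passes cytosolic electrons to the respiratory chain, read 5.40, 5.74, 5.67 and 5.42 in Cre-negative and 5.06, 4.95, 4.79 and 5.49 in Cre-positive arrays. Here 3 of 4 Cre-positive arrays lay below all Cre-negative ones and array 4 lay among them. The difference was −0.49 ± 0.139 (SE), with adjusted p = 0.791. With mimic the Gpd2 values were 7.73, 7.47 and 7.15, and 7.34, 7.02 and 6.68, with a difference of −0.44 (adjusted p = 0.705) in overlapping groups. Its second probe gave −0.23 and −0.37, the same direction. Sucla2, the partner of Suclg1 in succinate-CoA ligase, read 6.75, 6.92, 6.82 and 6.62 in Cre-negative and 7.20, 6.93, 6.97 and 7.25 in Cre-positive arrays without mimic. Those groups did not overlap, the closest values being 6.92 and 6.93, with a difference of 0.31 (adjusted p = 0.948), and with mimic the difference was 0.05. Lias, lipoic acid synthetase, which makes the cofactor of Dlat and Dlst, differed by 0.29 without mimic (adjusted p = 0.948) and by −0.11 with mimic, where another of its probes was the brightest. Sdhd, a membrane subunit of succinate dehydrogenase, differed by 0.30 with mimic (adjusted p = 0.604) and 0.18 without. Slc25a12, an aspartate-glutamate carrier, differed by −0.57 with mimic (adjusted p = 0.663) and 0.21 without.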

How the data were processed

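The authors deposited raw tables, which hold an intensity and a detection p-value per probe and array per the file headers, and normalized log2 tables. The deposited log2 values matched log2 raw intensity, quantile normalized per set, to within 4.97e-14, without background correction. Their software and genome build: not given in the sources used here.

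The function nec of limma 3.58.1 (R 4.3.3) corrected the raw intensity for background, with an offset of 16 and negative controls inferred from detection p. Values were then put on the log2 scale and quantile normalized per set. The offset shrinks differences of dim probes. Of 25697 probes, 23978 had 1 symbol and 1719 several or none, which stayed unnamed features. Probes entered with a detection p under 0.05 on at least 4 arrays without mimic or 3 with mimic, and the brightest probe stood for its gene, leaving 9546, 9883 and, for the difference between the sets, 9109 features. limma (lmFit, eBayes) gave each adjusted p. Mimic was not tested against no mimic, which coincides with the table.

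Members and lists were chosen with earlier results of these data known. Values per array were given for members with an unadjusted p under 0.05, the 3 with the smallest p per set and direction, isozymes differing in detection, and Hk1, Pfkp, Gapdh, Ldha, Pdha1 and Cs. Alternatives were a replicate block, other background, scaling, filter, probe and eBayes settings, the deposited values, and each array left out. The procedure was tested on simulated data. The number of arrays limits the precision. Figures used matplotlib 3.10.9 in Python 3.11.15.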

Additional observations from a re-analysis of the deposited data

Results flagged for a closer look

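Of 54 groups of 4 arrays (27 members in the Cre-negative and Cre-positive groups without mimic), 4 held a value far from the other 3 by Dixon's ratio against its 95% critical value, where chance marks about 1 in 20 groups. Cs read 7.79 on Cre-positive array 3, where the other 3 arrays read 7.42 to 7.48. Mdh1 read 7.22 on Cre-negative array 1, beside 7.02 to 7.05. Mdh2 read 7.47 on Cre-negative array 4, beside 7.24 to 7.26. Pdp1 read 7.83 on Cre-negative array 2, beside 7.61 to 7.64. The 4 values came from 4 different arrays.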

How the results depend on the processing

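No member passed an adjusted p under 0.05 in any setting run, and 225 refits of named members kept their direction without passing. Another 2 reversed with every probe tested, where a member's difference is the mean over its probes that passed the filter. There Tpi1 stood at 0.020 and Pfkp at 0.0076 with mimic. The p-value of a member in that setting is that of its brightest probe, not of the mean. Without mimic, median scaling left 1 member at an unadjusted p under 0.05, a member median of −0.041, 0 members not overlapping upward and 5 citrate cycle members above 0. No detection filter left 2 features called, and detection on every array left 0 members not overlapping downward. With mimic, the features called were 21 without background correction, 24 with an offset of 50, 21 under median scaling, 21 in the deposited normalized and series values and 26 with trend and robust settings. Median scaling gave 0 members at an unadjusted p under 0.05, and median scaling and every probe each gave 0 not overlapping downward. In the difference, features called were 3 without background correction, 6 with an offset of 50, 2 under median scaling, 3 in the deposited normalized and series values, 1 without filter and 2 with trend and robust settings, and no filter left 0 members at an unadjusted p under 0.05.

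Leaving out 1 array gave 0 to 3 members at an unadjusted p under 0.05 without mimic, 1 to 2 with mimic and 0 to 3 in the difference, and 3 to 5, 2 to 13 and 0 to 4 features called. Members not overlapping numbered 1 to 4 upward and 1 to 2 downward without mimic, and 2 to 5 and 1 to 4 with mimic. The shares of all features not overlapping or at an unadjusted p under 0.05 were not counted in these refits. Groups of fewer arrays overlap less often, so these counts are no result about the members. Citrate cycle members above 0 numbered 7 to 8 in each set. The member median ranged from 0.01 to 0.07, from 0.01 to 0.05 and from −0.03 to 0.03. Without Cre-positive array 4, Hk2 stood at −0.30.

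Arrays of the same number correlated in their deviations at −0.0691 to 0.00845 without mimic and 0.0378 to 0.215 with mimic, where 2 of 3 Cre-negative arrays correlated best with the Cre-positive array of their number. As not every correlation passed 0.1, the numbers were not taken as pairs, and pairing with mimic is unclear. A replicate block left 4, 3 and 0 features called and 2, 1 and 1 members at an unadjusted p under 0.05. The chip as a block was not run, since no header or label names the chip. Dim probes limit the 6 undetected genes to upper bounds. The cause of these shifts was not tested.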
